A study of Mus musculus with 3 samples.

Results

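The spleen-enriched windows were 10 kb stretches of the mouse genome with more small RNA reads of 24 to 32 nt in a MIWI2 immunoprecipitate from spleen than in either of the other libraries of the study. A window was a member when it held at least 5 such reads in spleen and when its spleen level, in reads scaled to a library total of 1000000 (RPM), was above the level in both MEL cells and testis. The mitochondrial chromosome was left out. By this rule 510 windows were members, which was 1.66% of the 30723 windows with a read of 24 to 32 nt in any library and 61.8% of the 825 windows with at least 5 spleen reads. The members were thus chosen by the spleen, MEL and testis counts of 24 to 32 nt reads, so these counts and their ratios are given as a description.

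The spleen library was an RNA immunoprecipitate from unfractionated splenocytes of C57Bl6/J mice aged 10 weeks. It was made with a rabbit polyclonal antibody against MIWI2 (PIWIL4), and RNA was recovered from the complexes by proteinase K digestion. The MEL library was an immunoprecipitate with the same antibody from mouse erythroleukemia cells (ATCC TIB-55), a cultured line of early erythroblasts transformed by Friend virus and grown in DMEM with serum. The testis library came from C57Bl6/J mice of 10 weeks and was no immunoprecipitate: total RNA was size-separated (18% polyacrylamide) and what ran close to 29 nt was taken. Each group had 1 library, so nothing below has a replicate check and no test was made between groups. Neither input RNA nor a mock immunoprecipitate was analysed here, and whether the spleens of several mice were pooled is not given in the sources used here.

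MIWI2 is a PIWI protein, known from the germ cells of the fetal testis, where it is guided by piRNAs to transposon sequences that are then silenced. piRNAs are small RNAs longer than microRNAs, made from long precursor transcripts without Dicer, and in adult testis most come from a limited number of genomic clusters in which reads start at very many positions. The spleen of the adult mouse makes red blood cells besides holding lymphocytes, and MEL cells are used as a model of early erythroid cells. Fragments of abundant structured RNAs, such as transfer RNAs, small nuclear RNAs and small nucleolar RNAs, can have the length of piRNAs but tend to have the same few ends in copy after copy. The files hold positions with no strand or sequence, and no annotation of their genome build was used, so the kind of RNA read in a window was not tested and no gene is named.

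The spleen library held 692011 reads, the MEL library 823452 and the testis library 1143785, so 3 reads were 4.34, 3.64 and 2.62 RPM. Outside the mitochondrial chromosome spleen had 64724 reads of 24 to 32 nt, MEL had 286077 and testis had 1071052. With the mitochondrial reads they made up 9.45% of the spleen library, 34.9% of the MEL library and 93.6% of the testis library. The share of the library at 17 nt or below was 73.2% in spleen, against 34.3% in MEL and 0.856% in testis. Spleen thus had the fewest reads in the range that chose the members, and the scale of the rule was over reads of every length.

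The members held 68.8% of all spleen reads of 24 to 32 nt, and most of these lay in a few windows. The same windows held 0.764% of the MEL reads of that length (2186 reads) and 0.0436% of those of testis (467 reads). The window on chromosome 7 that contains position 118219710 alone held 35.2% of the spleen reads (exact Clopper-Pearson 95% interval, 34.9 to 35.6). Without it the other 509 members held 33.5% (33.2 to 33.9). The 5 members with most reads held 49.7% of the spleen reads and the 15 with most held 56.5%. At the other end, 164 members had exactly 5 spleen reads and 217 had 6 to 10. All intervals cover counting error only. Without molecular identifiers, PCR copies could not be set apart from separate molecules.

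In the chromosome 7 window 22795 spleen reads of 24 to 32 nt were counted, against 59 in MEL and 5 in testis. These were 32940 RPM in spleen (exact Poisson 95% interval, 32514 to 33371), 71.6 RPM in MEL (54.5 to 92.4) and 4.37 RPM in testis (1.42 to 10.2). The spleen level was 459.7-fold that of MEL (356.3 to 604.1) and 7535-fold that of testis (3228 to 23209). The 3 levels were far apart, with MEL between spleen and testis. The place of the reads within the window was not part of the rule. Nearly all spleen reads, 22646 or 99.3%, formed a stack of overlapping reads 35 nt wide, from 118219707 to 118219741. The most-read left end (the lower coordinate of a read) was 118219710 with 11165 reads, followed by 118219709 with 5606 reads. On the right, 11770 reads ended at 118219739 and 44.2% at 118219740. Both ends were thus confined to a few positions, and the interval with most reads, 118219710 to 118219739, held 5711 copies of a 30 nt read.

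The MEL reads of the chromosome 7 window lay elsewhere in it. Of the 59 MEL reads, 53 (89.8%, interval 79.2 to 96.2) lay from 118219575 to 118219609, a stretch that starts 132 nt before the start of the spleen stack, and 5 lay within the spleen stack. Spleen had 148 reads (0.649%) over the stretch that held most MEL reads. The single-copy testis reads were scattered over the window, and 4 of them started at least 3758 nt before the start of the spleen stack. The ratio of spleen to MEL over the window therefore compared reads that lay mostly at different positions.

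**Figure D1:**
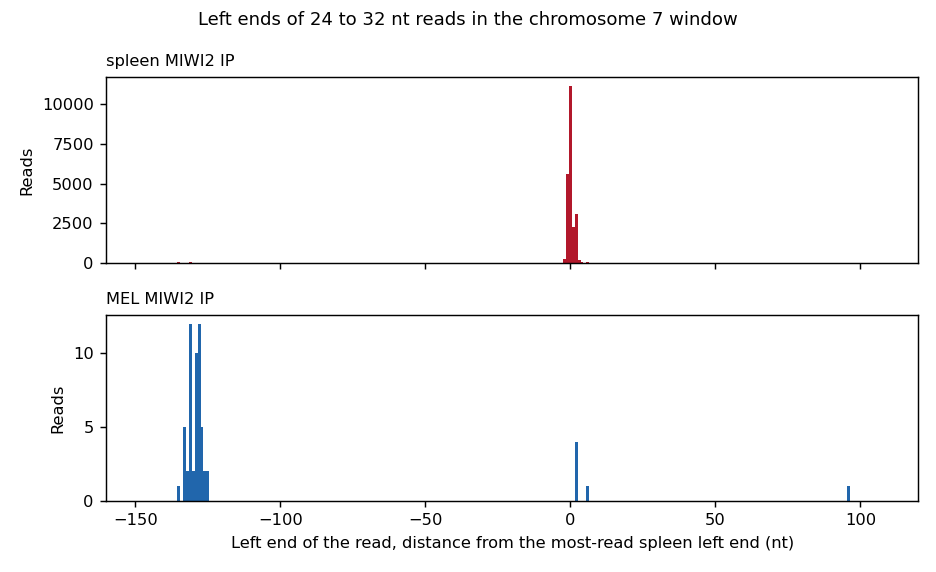
Left ends of 24 to 32 nt reads in the chromosome 7 window, in reads per position, against the distance in nt from the most-read spleen left end, with spleen above and MEL below on separate linear axes. The spleen reads stand in a narrow peak at the centre, with 11165 reads at the most-read end, and 53 of the 59 MEL reads stand more than 100 nt to its left.

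In the window on chromosome 8 from 112360001 to 112370000 spleen had 6256 reads (9040 RPM, 8818 to 9267), MEL had 1 read (1.21 RPM) and testis had 3 reads (2.62 RPM). The ratio to MEL was 7444 with a counting interval of 1336 to 294079, and 2481 when MEL was set at 3 reads. The ratio to testis was 3447 (1179 to 16718). All 6256 spleen reads fell in a stack of 29 nt from 112363199 to 112363227, and 5482 of them (87.6%) had the left end 112363200. The right ends were spread over neighbouring positions, with 3264 reads at 112363225. No spleen read of this window was 29 to 32 nt long: 44.8% were 26 nt, 37.4% were 25 nt and 16.6% were 24 nt. The MEL read and the 3 testis reads lay from 112363244 onward, beyond the end of the spleen stack.

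The window on chromosome 9 from 40610001 to 40620000 had 1519 spleen reads, 11 MEL reads and 1 testis read, or 2195, 13.4 and 0.874 RPM. The spleen level was 164.3-fold that of MEL (91.6 to 329.9). Its reads lay in a pair of stacks of equal width, 27 nt each. The stack from 40611665 to 40611691 held 738 spleen reads and that from 40612077 to 40612103 held 735, with starts 412 nt apart. The most-read left ends, 40611666 and 40612078, had 691 and 690 reads. Both stacks thus had nearly the same count, and how the authors placed reads that match more than 1 position is unknown here. The MEL reads again lay mostly beside these stacks, 3 of them from 40611726 to 40611752 and 4 from 40612138 to 40612164.

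The other windows among the 15 with most spleen reads held 296 to 852 reads in spleen, 0 to 203 in MEL and 0 to 13 in testis. Testis was thus low in each of the 15, while MEL differed more among them. The chromosome 15 window from 79900001 to 79910000 had 329 reads in spleen and 0 in both MEL and testis. With each of these set at 3 reads, spleen stood 130.5-fold above MEL and 181.3-fold above testis. The lower limits of the counting intervals were 105.5-fold and 146.6-fold. On chromosome 11 from 116930001 to 116940000 spleen had 720 reads, MEL 6 and testis 1, with spleen 142.8-fold above MEL (65.3 to 390.4). By contrast, on chromosome 11 from 101460001 to 101470000 spleen had 555 reads, MEL 203 and testis 2, with spleen 3.25-fold above MEL (2.77 to 3.84). The windows on chromosome 19 from 8790001 to 8800000 (296 in spleen, 101 in MEL and 10 in testis) and on chromosome 9 from 120030001 to 120040000 (346, 102 and 3 reads in the same order) stood 3.49-fold and 4.04-fold above MEL. In these 3 windows MEL had more than 100 reads of its own. On chromosome 14 from 31820001 to 31830000 spleen had 369 reads, MEL 5 and testis 3, with spleen 87.8-fold above MEL (37.3 to 272.1). Its spleen reads formed a pair of stacks of 205 and 164 reads, with starts 1922 nt apart.

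**Figure D2:**
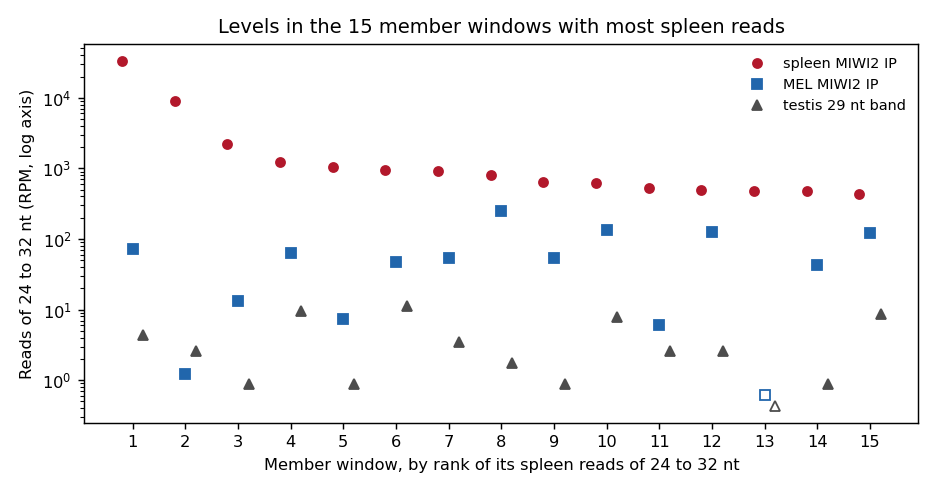
Level of 24 to 32 nt reads (RPM, log axis) in the 15 members with most spleen reads, ordered by rank, with spleen as circles, MEL as squares and testis as triangles. Open symbols are counts of 0, drawn below the level of 1 read. Spleen lies between 427.7 and 32940 RPM, and testis at 11.4 RPM or less in each of the 15.

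Over all 510 members the counts were mostly low. The median member had 6 spleen reads. MEL had 0 reads in 328 members and fewer than 3 in 400. Testis had 0 reads in 378 members and fewer than 3 in 453, and 296 members had no read in either. With a library under 3 reads set at 3, the median ratio was 2.38 over MEL and 3.31 over testis, a size that the lowest counts fix. At least 4-fold more than both was reached by 97 members, or 11.8% of the 825 windows with at least 5 spleen reads. At least 10-fold was reached by 27 members and at least 100-fold by 5, all of which are named above. For most members, then, the excess in spleen amounted to a handful of reads.

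The rule's limits cut through a continuous range of values. Of 262 windows with 4 spleen reads, 225 were also above both other libraries and were left out by the minimum alone. The member closest to the other libraries was chromosome 2 from 22440001 to 22450000, with 44 reads (63.6 RPM) in spleen, 52 (63.1 RPM) in MEL and 1 (0.874 RPM) in testis. Just outside was chromosome 2 from 119430001 to 119440000, with 6 reads (8.67 RPM) in spleen, 3 (3.64 RPM) in MEL and 10 (8.74 RPM) in testis. Of the 315 windows with at least 5 spleen reads that were not members, 24 were above MEL only, 83 above testis only and 208 above neither.

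Within the members, reads were stacked on few positions. The rule did not use position, but repeated copies of 1 read counted toward its minimum of 5 reads. With each distinct interval counted once, 89 windows were members and the median share on the most-read left end was 20%. The stacking is therefore not independent of the rule. The median member had 1 left end, and the most-read left end held a median of 100% of its reads. In 330 of 510 members (64.7%) every spleen read shared 1 left end, against 48 of the 315 other windows with at least 5 spleen reads (15.2%). All reads had the same start and the same end in 320 members (62.7%), against 40 of the other windows (12.7%). These 320 members held only 2056 reads, or 3.18% of the spleen reads of 24 to 32 nt, with a median of 6 and a highest count of 46. In 251 of them neither MEL nor testis had a read. The median number of spleen reads was 6 in the members and 24 in the other windows, so these shares were not compared at like depth. A window with few reads can have few ends, so the larger members are given apart. The same medians were not computed for other windows of that size. Among the 79 members with at least 20 spleen reads the median number of left ends was 9, the most-read left end held a median of 35.0% and the most-read stack a median of 88.5% of the reads.

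Which side of a stack was fixed differed between members. Among the 79 members with at least 20 reads the most-read left end held the larger share in 34, the most-read right end in 38, and the shares were equal in 7. In the chromosome 11 window from 116930001 to 116940000, 97.9% of reads had the left end 116938557 and 52.4% the most-read right end. In the chromosome 15 window from 79900001 to 79910000, 79.9% had the right end 79909018 and 27.4% the most-read left end. The chromosome 15 window from 98350001 to 98360000, with 132 spleen reads and none in MEL or testis, had 97.7% of its reads on the right end 98350284 and 41.7% on the most-read left end. At the extremes, all 86 reads of the chromosome 7 window from 29130001 to 29140000 shared the left end 29136526, and all 63 reads of the chromosome 5 window from 25180001 to 25190000 shared the right end 25183994. These last 3 windows were chosen after their values were seen. Without a strand, it cannot be told whether a left end was the 5′ or the 3′ end of the RNA.

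The windows with most left ends were chosen by that number, and no measure set them apart as a separate kind. On chromosome 11 from 101500001 to 101510000, 852 spleen reads had 51 left ends. On chromosome 12 the windows starting at 55810001 and 55830001 had 50 left ends for 120 spleen reads and 47 left ends for 109 spleen reads, and their most-read left ends held 5.83% and 7.34%. MEL had 32 and 42 reads in these windows of chromosome 12, and testis had 2 and 1. On chromosome 3 from 96290001 to 96300000, 73 spleen reads had 33 left ends, beside 35 MEL reads and 1 testis read. Even there the reads filled short stretches rather than the window: 58 of the 120 reads of the first chromosome 12 window lay within 90 nt and 48 within 66 nt. Another of the 5 windows with most left ends, on chromosome 11 from 101480001 to 101490000, had 87.4% of its 659 spleen reads within 85 nt. At least 20 left ends were found in 16 members and in 31 of the 315 other windows.

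Read lengths within the range of 24 to 32 nt differed between the chromosome 7 window and the sum of the other members. In that window 90.9% of the spleen reads were 29 to 32 nt. In the other 509 members together the share was 17.3% (16.8 to 17.8), and 61.8% were 24 to 26 nt. The chromosome 8 window from 112360001 held 6256 of these 21713 reads, and without it the shares were 24.3% (interval 23.61 to 24.97) and 46.8%. In the 315 other windows with at least 5 spleen reads the share of 29 to 32 nt was 66.7% (65.9 to 67.4), and in all spleen reads outside the members it was 55.2% (54.5 to 55.9). The members as a whole, with the chromosome 7 window counted in, stood at 54.97%. Counting each distinct interval once gave 26.02% with and 25.74% without the chromosome 7 window. These shares were measured in the same spleen library, at windows that differ in read number. Of the 315 other windows, 202 had at least 100 RPM in testis. The rule bars a window that is higher in testis, so the contrast in length is not independent of the rule.

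The MEL and testis reads of the member windows differed in length from each other. Of the 2186 MEL reads 12.3% (10.96 to 13.76) were 29 to 32 nt and 61.9% were 24 to 26 nt. Of the 467 testis reads 62.5% (58.0 to 66.9) were 29 to 32 nt and 20.3% were 24 to 26 nt. The testis RNA had been size-selected near 29 nt. Window by window, 292 members had their most frequent spleen length at 24 to 26 nt, 140 members had it at 27 or 28 nt and 78 had it at 29 to 32 nt. Of the 315 other windows, 70 had it at 24 to 26 nt, 37 at 27 or 28 nt and 208 at 29 to 32 nt. The rule set these 315 windows apart by their MEL and testis levels, which limits this contrast too.

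**Figure D3:**
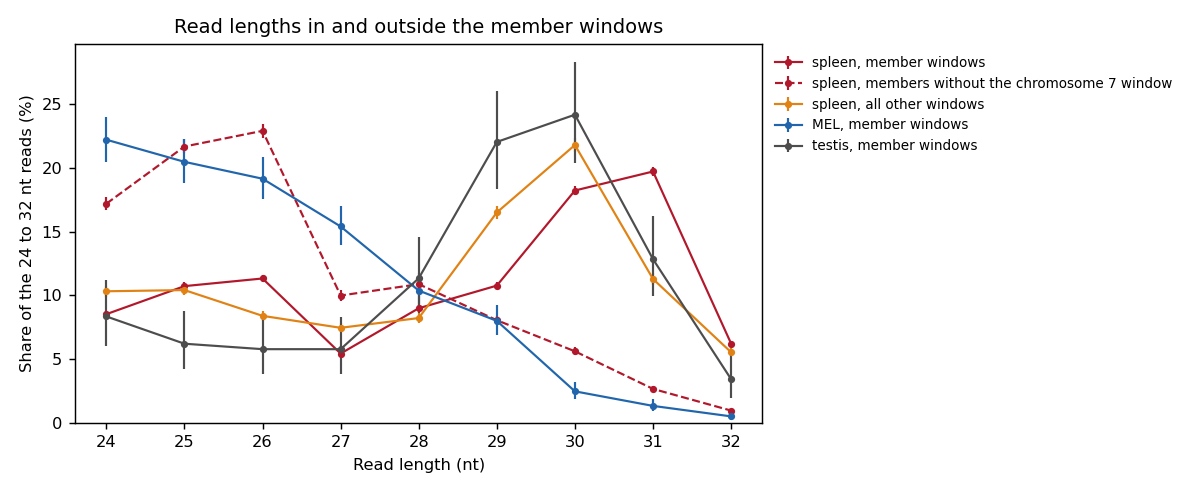
Share of 24 to 32 nt reads at each length in nt, for spleen reads in the members with and without the chromosome 7 window, spleen reads in all other windows, and MEL and testis reads in the members, with exact 95% intervals as bars. The spleen line without chromosome 7 peaks at 26 nt (22.9%), whereas the line with it peaks at 31 nt (19.7%).

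Among the 15 members with most spleen reads, 3 besides the chromosome 7 window had most of their reads at 29 to 32 nt. The chromosome 9 window from 120030001 to 120040000 had 85.0% of its spleen reads in that range, with 85.5% on the left end 120039534. The chromosome 15 window from 79900001 to 79910000 had 75.1%, and the chromosome 11 window from 83080001 to 83090000, with 328 spleen reads, 35 MEL reads and 1 testis read, had 56.4%. In the chromosome 18 window from 75160001 to 75170000 the share was 1.11%, and 81.6% of its 450 spleen reads were 24 nt. That window had 3 stacks, starting at 75161533, 75161108 and 75160712, with 260, 138 and 52 reads. MEL had 44 reads there and testis 1, and MEL used the same first pair of stacks, with 29 and 14 reads.

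Reads shorter than 24 nt were not used by the rule and were also more abundant in spleen than in MEL over many members. The spleen level under 24 nt was above that of MEL in 218 of 510 members (42.7%), MEL was above spleen in 112, and 180 had no such read in either. Over all 825 windows with at least 5 spleen reads spleen was above MEL in 29.1%, and over all 30723 windows in 22.2%. In the 315 other windows it was above in 22 (6.98%). Among the 79 members with at least 20 spleen reads of 24 to 32 nt, spleen was above MEL under 24 nt in 70 (88.6%), against 30.6% of all 248 windows with that many reads and 6 of the 169 that were not members. Windows are not replicates, and the reads of other lengths came from the same libraries. The 825 and the 248 windows include the members. Of the 315 other windows, 83 were above testis only and 208 above neither library at 24 to 32 nt, so the rule had set them at or below MEL. In members 86.2% of the spleen reads of 18 to 23 nt shared an end with a longer one. The contrast is therefore not independent of the rule.

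The range of 18 to 23 nt, which contains the length of microRNAs, gave larger sums than the shortest reads. In it the members held 18108 RPM in spleen, 2621 RPM in MEL and 60.3 RPM in testis, although the library totals in this range were 167847, 306525 and 52676 RPM. Spleen was above MEL in 170 of 510 members (33.3%), beside 22.7% of the 825 windows and 8.38% of all windows. With 20 or more spleen reads of 24 to 32 nt it was 67 of 79 members, beside 29.0% of all such windows. For reads of 17 nt or less the members held 4730 RPM in spleen, 1015 RPM in MEL and 12.2 RPM in testis, and spleen was above MEL in 171 members (33.5%, beside 27.8% and 18.5%) and in 65 of the 79 (beside 39.9%). The library totals at 17 nt or less were 731351 RPM in spleen, 342934 RPM in MEL and 8563 RPM in testis. Spleen was thus above MEL at these lengths over the whole library too. Reads this short can match the genome at places other than their origin, so this last range is the least certain. The windows set beside the members include them here too, so neither range is independent of the rule.

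The chromosome 9 window from 40610001 to 40620000 had more reads of 18 to 23 nt than of 24 to 32 nt. It had 2893 in spleen, 38 in MEL and 0 in testis, or 4181 RPM in spleen and 46.1 RPM in MEL. The chromosome 8 window from 112360001 to 112370000 had 954 in spleen and 0 in MEL and testis. In the chromosome 7 window around 118219710 these shorter reads were few beside the longer ones: spleen had 511, MEL 7 and testis 1. The chromosome 15 window from 79900001 to 79910000 had 0 in spleen, 2 in MEL and 0 in testis, so its 329 longer reads had no counterpart of 18 to 23 nt.

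**Figure D4:**
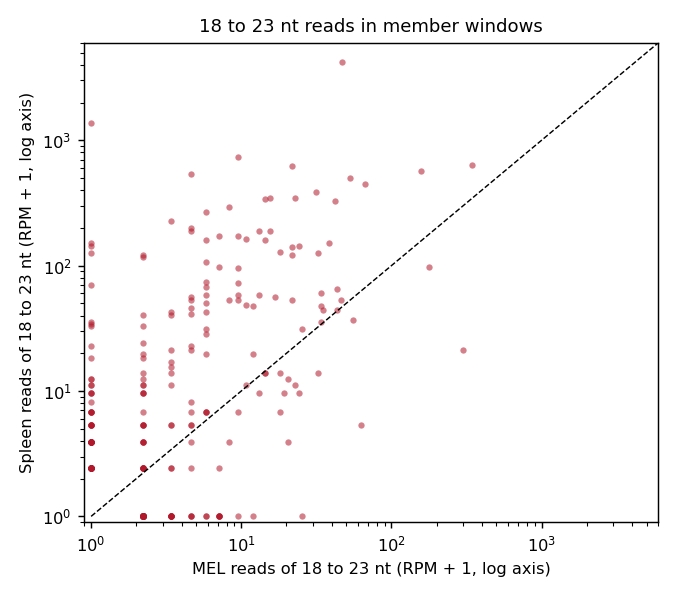
Level of 18 to 23 nt reads in spleen (vertical) against MEL (horizontal), in RPM + 1 on log axes, with 1 point per member that has such a read in either library; the dashed line marks equal levels. Spleen was above MEL in 170 of the 510 members and MEL above spleen in 73.

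The shorter spleen reads shared ends with the longer ones. Of the spleen reads of 18 to 23 nt in members, 64.0% had the left end of a 24 to 32 nt spleen read, 33.5% had such a right end and 86.2% had either. In the 315 other windows these shares were 41.5%, 38.0% and 64.0%. At 17 nt or below, 64.3% of the spleen reads in members shared either end, against 29.0% in the other windows. Members and other windows differ in how many distinct ends they hold, and no allowance was made for that.

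The most-read stacks of MEL and spleen overlapped in part of the members. In 83 members with at least 5 MEL reads, the most-read MEL stack overlapped the most-read spleen stack in 46 (55.4%, interval 44.1 to 66.3). In the 37 others the starts of the stacks were a median of 473 nt apart. Of the 300 other windows with that many MEL reads the stacks overlapped in 110 (36.7%), and the median distance between starts in the rest was 1371.5 nt. By read, 46.8% of the MEL reads in members had a left end seen in spleen, against 58.2% in the other windows. The median number of spleen stacks per window was 1 over the 510 members and 3 over the 315 other windows. No allowance was made for that or for the number of left ends, and the rule had sorted these windows by MEL level. On chromosome 1 from 162960001 to 162970000, spleen had 434 reads, MEL 110 and testis 9. The spleen stack from 162966813 held 280 reads in spleen and 35 in MEL, while the most-read MEL stack, with 43 reads, started at 162967735, 922 nt after the start of the spleen stack.

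Several of the largest members carried the same arrangement of reads at more than 1 place. Stretches of reads with gaps of at most 200 nt, at least 50 spleen reads and at least 12 left ends were compared by their read profiles, as they stood or mirrored, at the shift with the highest similarity. Of 23 such loci, 11 fell into 2 sets joined by cosine similarities of at least 0.9, where 1 means identical proportions. The first set had 7 loci in 6 windows, 5 of them on chromosome 11 between 101466214 and 101519739, 1 on chromosome 8 from 53422272 to 53422409 and 1 on chromosome X from 13892530 to 13892628. Together these loci held 3224 spleen reads, 360 MEL reads and 29 testis reads, or 4.98% of all spleen reads of 24 to 32 nt, sums that count a read more than once if it was listed at several loci. The second set had 4 loci, on chromosome 11 from 83085049 to 83085187 and on chromosome 1 from 72283570, 72290837 and 72301652, with 1173 spleen reads, 112 MEL reads and 2 testis reads.

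Within the first set the similarity of 21 pairs was 0.846 to 0.975, and 12 of these pairs were mirrored. Within the second set it was 0.891 to 0.974 over 6 pairs. Between the sets it was 0.630 to 0.842 over 28 pairs, while all pairs of loci not of the same set had a median of 0.316. The loci of a set had unequal counts, 252 to 656 spleen reads in the first set and 263 to 328 in the second. How the authors placed reads that match several of these loci is unknown here, and whether reads were listed at more than 1 locus was not tested. Most of the loci were 137 to 141 nt long. By window, chromosome 11 from 101500001 had 852 spleen reads, 52 MEL reads and 11 testis reads, and chromosome 11 from 101480001 had 659 in spleen, 39 in MEL and 13 in testis. Chromosome 11 from 101510001 had 629 in spleen, 44 in MEL and 4 in testis. Over the 6 windows of the first set spleen stood between 3.25-fold above MEL (chromosome 11 from 101460001) and 33.3-fold above it (chromosome 8 from 53420001, with 280 spleen reads, 10 MEL reads and 4 testis reads). The sets were found by looking at these same spleen reads, so their likeness is a description.

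In each locus of both sets, a larger share of spleen than of MEL reads lay before the midpoint. The midpoint was that of each locus's own stretch of spleen reads, and mirrored loci were turned round. The sets were joined and turned by their spleen profiles, so the likeness of the spleen shares across loci was set in advance. If reads were listed at several loci, the loci are not separate cases. In the first set 87.3% of the spleen reads (86.1 to 88.4) lay before the midpoint, against 21.9% of its MEL reads (17.8 to 26.6). In the second set it was 80.0% in spleen (77.6 to 82.2) and 30.4% in MEL (22.0 to 39.8). Over the 11 loci the share was 75.9% to 98.6% in spleen and 5.26% to 61.5% in MEL. The highest MEL share was that of the chromosome 11 locus from 101488730, where most reads of both libraries lay before the midpoint. The chromosome 11 locus from 101466214 had 200 of the 360 MEL reads of the first set and 7.5% of them before the midpoint. Without it the first set stood at 84.9% in spleen and 40% in MEL (32.3 to 48.0). MEL reads per locus were as few as 9, and whether the same copies were read in both kinds of cells was not tested. Of all 23 loci compared, in a set or not, 20 had at least 10 MEL reads. In 13 of these 20 the spleen and MEL shares differed by more than 25 percentage points, in either direction.

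**Figure D5:**
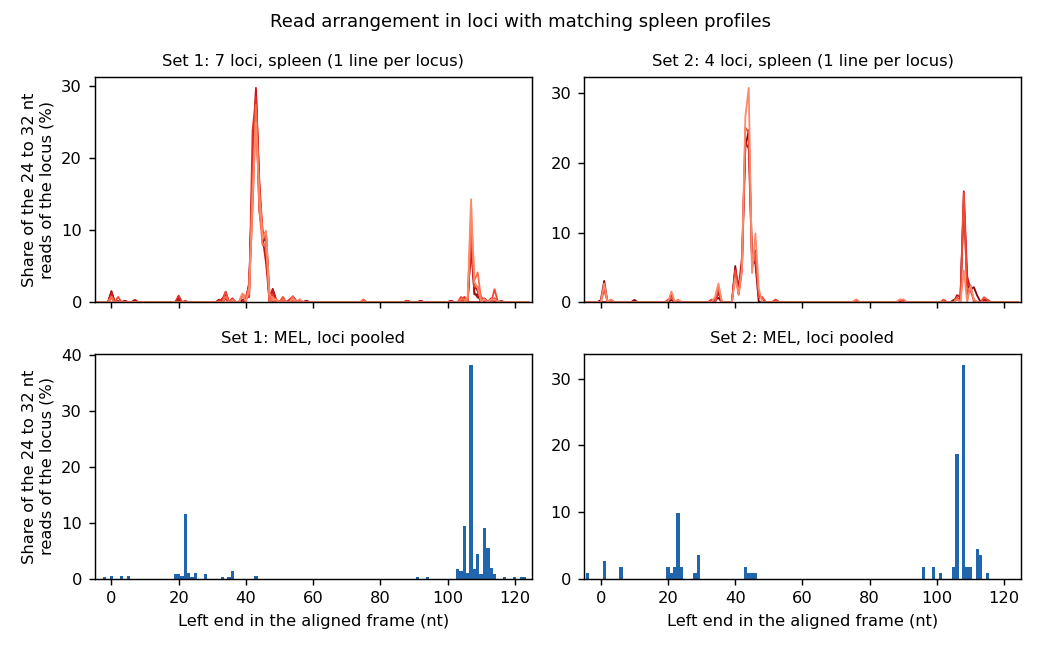
Share of 24 to 32 nt reads at each left end (nt), in a common frame where each locus stands at its shift of highest similarity. The 7 loci of the first set are on the left and the 4 loci of the second on the right, with spleen on top as 1 line per locus and MEL below as bars over the pooled loci. The spleen lines share the main peak at 43 nt (28.3% of pooled reads) in the first set and differ in the height of the peak near 107 nt, where the locus from 101466214 has none. The tallest MEL bar of the first set stands at 107 nt (38.3%).

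No member was a window with a high level in testis. Testis had 302 windows of at least 100 RPM, beside 30723 windows with a read of 24 to 32 nt in any library. Such windows were thus few among all windows. None of the members was among them (0 of 510), while 202 of the 315 other windows with at least 5 spleen reads were. The rule bars a window that is higher in testis, so it largely fixes this contrast. Of the 510 members, 1 lay within 10 kb and 7 within 100 kb of such a window, against 7 and 17 of the 113 other windows that were not themselves such windows. The same counts were not made over all windows, so these distances are not read as a trait of the members. At most 22 testis reads were found in a member, on chromosome 2 from 130100001 to 130110000, where spleen had 177 and MEL 35. That window was chosen after its values were seen.

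Most members had no member as a neighbour. Members were 1.66% of the windows with a 24 to 32 nt read, and no like count was made for other windows, so this is a description. The 510 windows formed 490 runs of neighbours, of which 474 were single windows. The longest run was 4 windows on chromosome 1 from 72270001 to 72310000, with 979 spleen reads, 101 MEL reads and 3 testis reads, and it contained 3 of the loci of the second set. Runs of 3 windows lay on chromosome 12 from 55810001 to 55840000 (254 spleen reads, 89 MEL reads and 4 testis reads) and on chromosome 9 from 15110001 to 15140000 (71, 38 and 4 reads in the same order). Members were found on 20 chromosomes, with 40 on chromosome 11 and 37 each on chromosomes 1 and 2, and 0 on chromosome names ending in _random or on chromosome Y. As a share of the windows with a 24 to 32 nt read they ranged on these 20 chromosomes from 1.001% on chromosome 14 to 2.63% on chromosome 19.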

How the data were processed

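The deposited files list mapped reads as chromosome, start and end, with copies of a read on repeated lines; the authors gave no count, strand or score. The submitters' processing notes name Bowtie 0.12.7 as the mapper. Mapping options, trimming, the handling of multiply matching reads and the genome build were not found in the labels or files. Reads on chromosome 7 reached 152523579, past the last GRCm38 gene there at 145324086, so the GRCm38 annotation was not joined; the gene classes and gene lists planned for an annotated build were not computed, and no sequence is shown. Read length is end minus start, and coordinates are counted from 1. Reads were assigned to 10 kb windows by left end and scaled to 1000000 lines per library. Intervals are exact (Clopper-Pearson for shares, Poisson for counts, both 95%). Stacks are runs of overlapping reads. The members and lists were chosen with earlier results of these data known. Windows named were the 15 with most spleen reads, the 5 with the largest fold among those with at least 100 spleen reads, the 5 with most left ends, those in testis windows of at least 100 RPM (0 found), and those at the limits; any other is marked in the text. On simulated data, recovery of planted windows by the rule was checked, as was the regrouping of planted profiles. The simulated windows had no PCR copies, and calls among windows that were not planted are not given here. Python 3.11.15, numpy 2.4.6, pandas 2.3.3, scipy 1.17.1 and matplotlib 3.10.9 were used. Each group had 1 library and no p-value was computed. Alternatives varied the read minimum, length range, window size and tiling, scale, copies, fold and chromosome 7 window.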

Additional observations from a re-analysis of the deposited data

Results flagged for a closer look

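Reads of 33 to 40 nt lie outside the range that chose the members, and spleen had 475 of them in members, MEL 16 and testis 1. The chromosome 7 window around 118219710 had 255 in spleen and 0 in MEL and testis. The chromosome 9 window from 120030001 to 120040000 had 47 in spleen and 0 in MEL and testis, and the chromosome 11 window from 101500001 to 101510000 had 21 in spleen and 0 in MEL and testis. The longest reads were 40 nt in the spleen file and 36 nt in the MEL and testis files, and the part of this difference in these counts was not tested. On the mitochondrial chromosome, which the rule left out, 639 reads of 24 to 32 nt were counted in spleen, 1320 in MEL and 9 in testis.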

How the results depend on the processing

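Of 55 values recomputed under other settings 34 moved, which means more than 1.5 times apart for the number of members and outside the 95% counting interval of the value given for the others (for the median, outside its 95% interval over windows). The values in the order number of members, percent of spleen 24 to 32 nt reads in members without chromosome 7, percent of these of 29 to 32 nt, percent of members with more spleen than MEL reads under 24 nt, and median percent on the most-read left end were 510, 33.55, 17.29, 42.7 and 100. A minimum of 10 reads gave 137 members, 30.03%, 76.64% for reads under 24 nt and a median of 50%. A minimum of 20 reads gave 79, 28.83%, 88.61% and 35%. Reads of 26 to 31 nt gave 326 members, 26.92% of reads and, for 29 to 31 nt, 27.07%. Both percentages are over reads of 26 to 31 nt only, so they are not the same measures as 33.55 and 17.29. Windows of 5 kb gave 34.21% of reads and 36.73% for reads under 24 nt, and tiling shifted by 5 kb gave 34.08% of reads. RPM over the 24 to 32 nt lines gave 38.04% of reads and 21.52% of 29 to 32 nt, with 571 members. Each distinct interval counted once gave 89 members, 21.44%, 28.20%, 91.01% and a median of 20%. At least 4-fold over both gave 97, 26.90%, 16.41%, 82.47% and 50%. With chromosome 7 kept, the share of reads was 68.77% and that of 29 to 32 nt 54.97%. At least 2 left ends, chosen after seeing the data, gave 180 members, 30.07%, 68.89% for reads under 24 nt and a median of 50%. This setting removes every window at 100% on 1 left end, so it had to lower that median. Leaving out the member second in spleen reads, on chromosome 8, also chosen after seeing the data, gave 23.88% of reads and 24.29% of 29 to 32 nt. The number of members and the stacking on 1 left end thus rest on windows with few reads. No paired analysis was possible because each group had 1 library, and for the same reason no library could be left out. Depth limits the members near the minimum most, where 5 spleen reads are 7.23 RPM.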
